A study of Mus musculus with 35 samples.

Results

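The Ly6 surface antigens Ly6c1, Ly6c2, Ly6a and Ly6e were followed across bulk RNA-seq libraries of sorted mouse CD8 T cells. They are 4 of the 22865 gene rows of the count table, taken by their symbols. They were selected on results already known from these libraries, above all the low Ly6c2 in liver CXCR6pos cells of CD-HFD mice, so every comparison that uses those libraries is given for them as a description with no test. Of the 4 genes, 3 passed the filter on low counts, as did 6174 genes in all, and Ly6c1 did not.

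The mice were C57BL/6, 13 months old, and received either CD-HFD, a choline-deficient high-fat diet that leads to fatty and inflamed liver, or ND, the diet it was set against. Hepatic CD8 T cells were sorted as CXCR6pos or CXCR6neg, by the chemokine receptor that marks many T cells held in the liver, and splenic CD8 T cells as CX3CR1neg. The fit held 11 libraries of liver CXCR6pos cells (CD-HFD 5, ND 6), 10 of liver CXCR6neg cells (CD-HFD 6, ND 4) and 11 of spleen CX3CR1neg cells (CD-HFD 6, ND 5). Neither the sex of the mice nor the number of mice behind a library is stated in the labels, so a p-value reflects how far the libraries of a group spread, and that spread may in part be technical.

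Members of the Ly6 family are small proteins with a three-finger fold that are held on the outer face of the cell membrane by a glycosylphosphatidylinositol (GPI) anchor. Ly6c1 and Ly6c2 encode the Ly6C antigen of monocytes and of effector and memory CD8 T cells, Ly6a encodes Sca-1, which is known from blood stem cells and activated T cells, and Ly6e encodes an antigen of thymocytes and peripheral lymphocytes. Their transcription is known to respond to interferons. All 4 genes lie in 1 cluster on mouse chromosome 15 (GRCm38, GENCODE M21, whole genes): Ly6e at chr15:74955051-74959905 on the plus strand, Ly6a at chr15:74994877-74998031, Ly6c1 at chr15:75044018-75048830 and Ly6c2 at chr15:75108158-75111970, these last on the minus strand.

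Total counts per library ran from 15633 to 978896 with a median of 308123, and 2 libraries were below 0.2 times that median, ND liver CXCR6pos replicate 1 and CD-HFD liver CXCR6pos replicate 5. The 9 markers of CD8 T cells were detected in every group, with sums of 7243 to 11667 CPM, the usual unit of counts scaled to a common library total. Cxcr6 averaged 685 ± 134 CPM in CXCR6pos and 82.5 ± 29.4 CPM in CXCR6neg cells of CD-HFD livers (SD, n = 5 and 6), against 491 ± 212 CPM in CXCR6pos and 215 ± 165 CPM in CXCR6neg cells of ND livers (SD, n = 6 and 4). In the ND livers the libraries overlapped, since CXCR6pos replicate 6 had 191 CPM of Cxcr6 and CXCR6neg replicate 4 had 434 CPM. Another 2 columns held the same values although they carry different labels, replicate 1 of the CXCR6neg cells of ND livers and replicate 6 of the spleen cells of ND mice, and both were left out.

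Among the 3 members that passed the filter, Ly6c2 was the one whose level differed most between groups. CD-HFD liver CXCR6pos libraries had 560, 540, 441, 458 and 700 CPM. ND liver CXCR6pos libraries had 1791 CPM at the lowest, 2361 CPM at the median and 3216 CPM at the highest. No CD-HFD library of this fraction reached the level of any ND library.

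CD-HFD liver CXCR6neg libraries had 1561 CPM of Ly6c2 at the lowest, 1927 CPM at the median and 2032 CPM at the highest. ND liver CXCR6neg libraries had 2195, 2175, 2754 and 2376 CPM. These libraries did not overlap either, although the gap between the diets was far smaller here than in the CXCR6pos fraction. The share of all genes without overlap was not counted for any pair of groups, so a lack of overlap is a description throughout.

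In the spleen, CD-HFD libraries had 2357 CPM of Ly6c2 at the lowest, 2524 CPM at the median and 3132 CPM at the highest, and ND libraries had 2974, 2984, 2909, 2876 and 2738 CPM. Every ND value lay within the range of the CD-HFD values. From low to high the group means ran over CD-HFD liver CXCR6pos (540 ± 103 CPM), CD-HFD liver CXCR6neg (1855 ± 199.9 CPM), ND liver CXCR6pos (2364 ± 519 CPM), ND liver CXCR6neg (2375 ± 268 CPM), CD-HFD spleen (2676 ± 322 CPM) and ND spleen (2896 ± 99.2 CPM; SD, n as above). Each neighbour in this order overlapped the next in its libraries, except CD-HFD liver CXCR6pos and CD-HFD liver CXCR6neg.

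**Figure D1:**
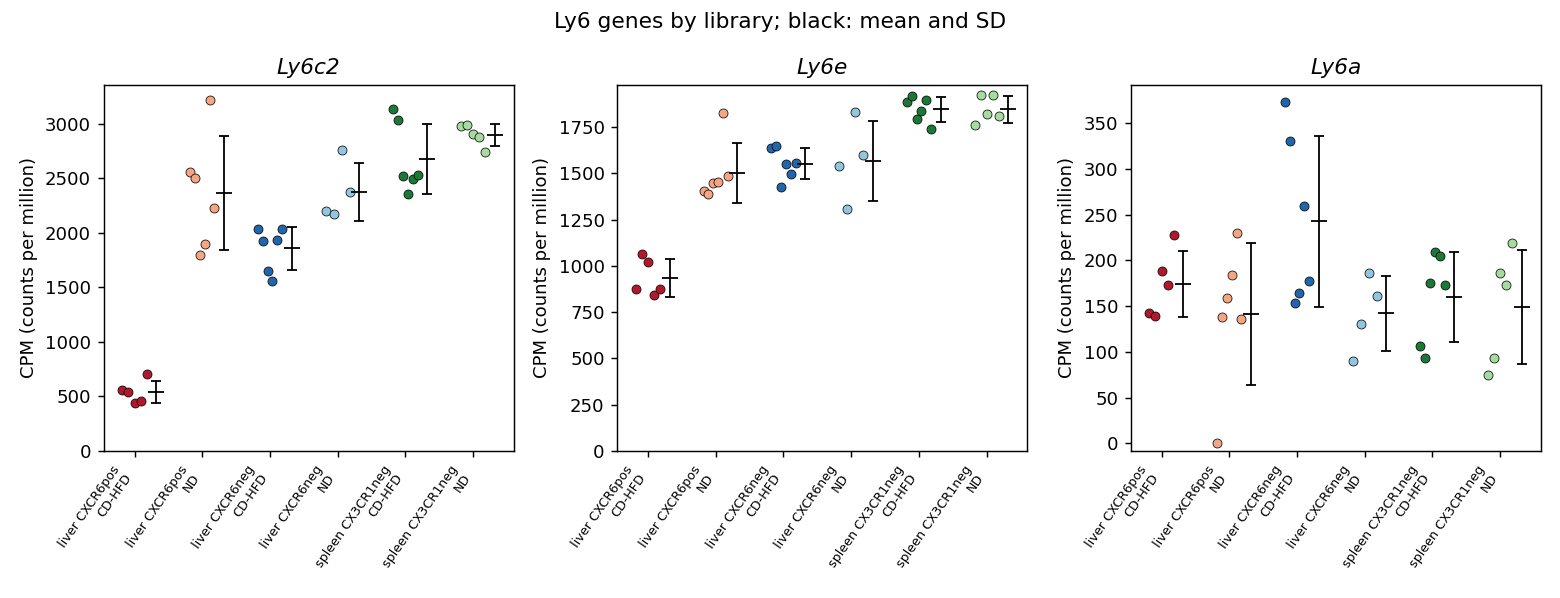
CPM of Ly6c2, Ly6e and Ly6a on the vertical axis of each panel, with 1 point per library for the 6 groups along the horizontal axis and the mean and SD in black. The CD-HFD liver CXCR6pos libraries lie between 441 and 700 CPM for Ly6c2 and between 840 and 1066 CPM for Ly6e, below all other libraries, while for Ly6a every pair of groups overlaps.

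As a description, Ly6c2 was lower in CD-HFD than in ND liver CXCR6pos cells by a log2 fold change of -2.14 ± 0.12 (SE), or 4.42-fold. Against CD-HFD liver CXCR6neg cells the log2 fold change in CD-HFD CXCR6pos cells was -1.82 ± 0.12, or 3.54-fold lower, and against CD-HFD spleen it was -2.37 ± 0.12, or 5.19-fold lower. In these bulk libraries fewer cells with the transcript and less transcript per cell cannot be told apart. Over all genes, 4.84% were higher and 6.45% lower in the first of these comparisons, and 4.76% were higher and 6.38% lower in the second. In that against CD-HFD spleen, 12.5% of all genes were higher and 13.3% lower.

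Comparisons that do not use the CD-HFD liver CXCR6pos libraries were tested, with p-values adjusted over all 6174 genes. Ly6c2 was lower in CD-HFD liver CXCR6neg than in CD-HFD spleen cells by a log2 fold change of -0.55 ± 0.10 (adjusted p = 8.08e-06), with no overlap of the libraries. It was also lower in ND liver CXCR6pos than in ND spleen cells (log2 fold change -0.35 ± 0.10, adjusted p = 0.0107), although the spleen libraries lay within the range of the liver ones. That call was lost without ND liver CXCR6pos replicate 3 (log2 fold change -0.27, adjusted p = 0.0734) or replicate 4 (log2 fold change -0.28, adjusted p = 0.0601).

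The other tests of Ly6c2 did not pass. ND liver CXCR6neg against ND spleen gave a log2 fold change of -0.28 ± 0.11 (adjusted p = 0.119). ND liver CXCR6pos against ND liver CXCR6neg gave -0.06 ± 0.11 (adjusted p = 0.974), so the difference between the fractions that was seen under CD-HFD was not detected under ND. Cxcr6 itself overlapped between these groups, and leaving out both ND libraries with Cxcr6 against their label did not bring Ly6c2 past the threshold.

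Between the diets, the log2 fold change of Ly6c2 in liver CXCR6neg cells was -0.38 ± 0.11, with an unadjusted p of 0.00075 and an adjusted p of 0.0915. In spleen cells it was -0.11 ± 0.10 (adjusted p = 1). The difference between these diet effects was -0.27 ± 0.15 on the log2 scale and did not pass the test (adjusted p = 0.936). The diet effect in liver CXCR6pos cells differed from that in CXCR6neg cells by -1.76 ± 0.16 and from that in spleen by -2.03 ± 0.16 on the log2 scale, values that rest on the libraries used to choose the gene.

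**Figure D2:**
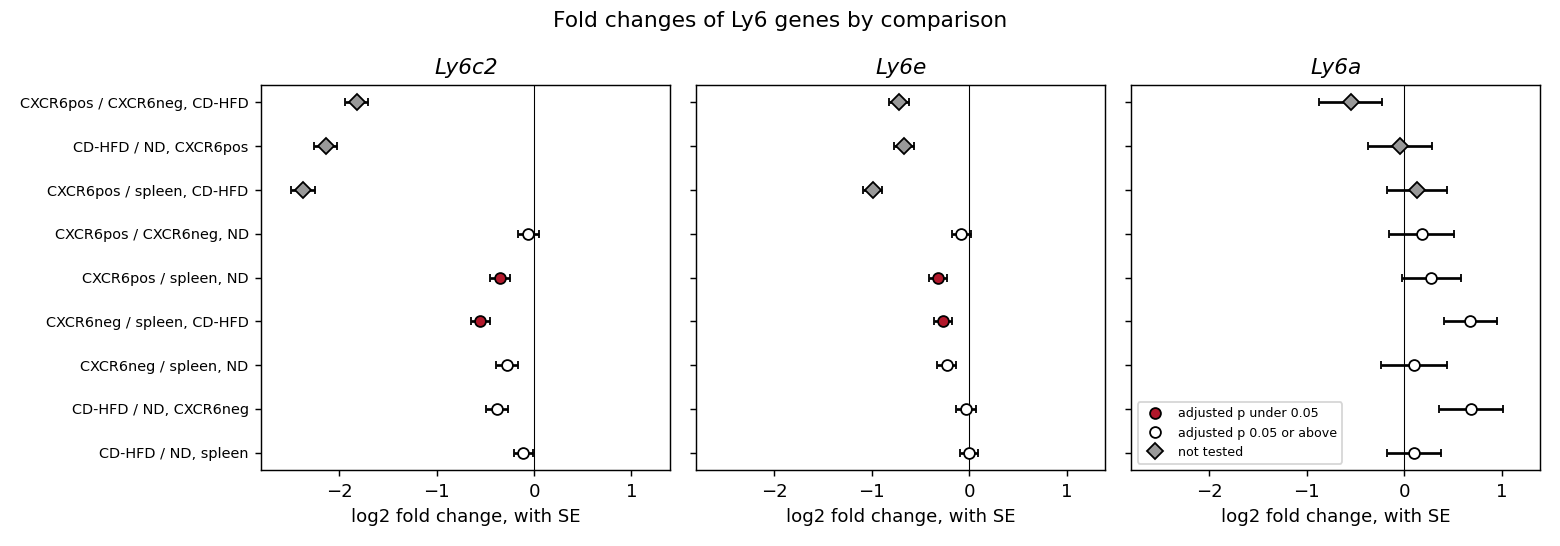
Log2 fold change on the horizontal axis, with its standard error, of Ly6c2, Ly6e and Ly6a in 9 comparisons, each written as the group over the one it is set against. Red points passed the adjusted threshold of 0.05, white points did not, and grey diamonds use the CD-HFD liver CXCR6pos libraries and were not tested; Ly6c2 has its lowest values, -2.37 to -1.82, in those 3 comparisons.

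Ly6e was also lowest in CD-HFD liver CXCR6pos cells, by a smaller amount. CD-HFD liver CXCR6pos libraries had 874, 1066, 1019, 840 and 875 CPM. ND liver CXCR6pos libraries had 1391 CPM at the lowest, 1450 CPM at the median and 1827 CPM at the highest. The diets did not overlap in this fraction, and the log2 fold change of CD-HFD against ND was -0.67 ± 0.10, or 1.59-fold lower, given as a description.

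CD-HFD liver CXCR6neg libraries had 1429 CPM of Ly6e at the lowest, 1553 CPM at the median and 1647 CPM at the highest, and ND liver CXCR6neg libraries had 1538, 1306, 1830 and 1602 CPM. The CD-HFD values all lay within the ND range. The spleen groups were nearly equal, at 1847 ± 68.1 CPM in CD-HFD and 1847 ± 73.5 CPM in ND mice (SD, n = 6 and 5). Their spread was close to that of counting alone, with a coefficient of variation of 3.69% in CD-HFD spleen, where counting error gives 3.54%. From low to high its means ran over CD-HFD liver CXCR6pos (935 ± 101 CPM), ND liver CXCR6pos (1502 ± 163 CPM), CD-HFD liver CXCR6neg (1553 ± 83.0 CPM), ND liver CXCR6neg (1569 ± 216 CPM) and both spleen groups, and among neighbours in this order only the first did not overlap the next.

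As a description, Ly6e was lower in CD-HFD liver CXCR6pos cells than in CD-HFD liver CXCR6neg cells by a log2 fold change of -0.72 ± 0.10, and lower than in CD-HFD spleen by -0.99 ± 0.10. Of the 3 tested members, 2, Ly6c2 and Ly6e, were lower in ND liver CXCR6pos than in ND spleen cells, where 7.43% of all genes were higher and 6.98% lower. For Ly6e the log2 fold change was -0.32 ± 0.09 (adjusted p = 0.0115). The same 2 members were lower in CD-HFD liver CXCR6neg than in CD-HFD spleen cells, where 5.73% of all genes were higher and 4.71% lower.

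In that last comparison Ly6e changed by a log2 fold change of -0.27 ± 0.09 (adjusted p = 0.0377), with no overlap of the libraries, and the call was the least firm of those made. Without any 1 of CD-HFD liver CXCR6neg replicates 2 to 6 or of CD-HFD spleen replicates 1, 2, 4 and 5 the adjusted p was between 0.0544 and 0.0845, with log2 fold changes of -0.28 to -0.25. In ND mice the liver CXCR6neg against spleen value was -0.23 ± 0.10 (adjusted p = 0.189), in a comparison where 4.73% of all genes were higher, 2.14% were lower and none of the 3 members passed.

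Neither diet comparison outside the CXCR6pos fraction, nor the fractions under ND, gave a change of Ly6e that passed. The log2 fold change of CD-HFD against ND was -0.03 ± 0.10 in liver CXCR6neg (adjusted p = 0.98) and 0.00 ± 0.09 in spleen cells (adjusted p = 1), and that of CXCR6pos against CXCR6neg under ND was -0.08 ± 0.10 (adjusted p = 0.947). None of the 3 tested members passed in these comparisons by edgeR or DESeq2, with unadjusted p-values under 0.05 for Ly6c2 and Ly6a in liver CXCR6neg cells only. Few genes of any kind passed: in liver CXCR6neg cells 0.292% were higher and 0.178% lower under CD-HFD, in spleen 0.0162% were higher and 0.0162% lower, and between the ND fractions 0% were higher and 0.0324% lower by edgeR, with 224 genes higher at an unadjusted p under 0.05 and 7 higher by DESeq2.

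Ly6c2 and Ly6e did not move in proportion. The log2 ratio of their counts within a library averaged -0.81 ± 0.34 in CD-HFD and 0.63 ± 0.25 in ND liver CXCR6pos cells (SD, n = 5 and 6). It averaged 0.25 ± 0.14 in CD-HFD and 0.60 ± 0.10 in ND liver CXCR6neg cells (SD, n = 6 and 4), and 0.53 ± 0.15 in CD-HFD and 0.65 ± 0.07 in ND spleen cells (SD, n = 6 and 5). The diets did not overlap in either liver fraction and overlapped in the spleen. How often ratios of other genes part the same libraries was not counted, so this is a description. A ratio within a library needs no scaling between libraries, and it shows unequal change of the 2 genes, not which of them changed.

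**Figure D3:**
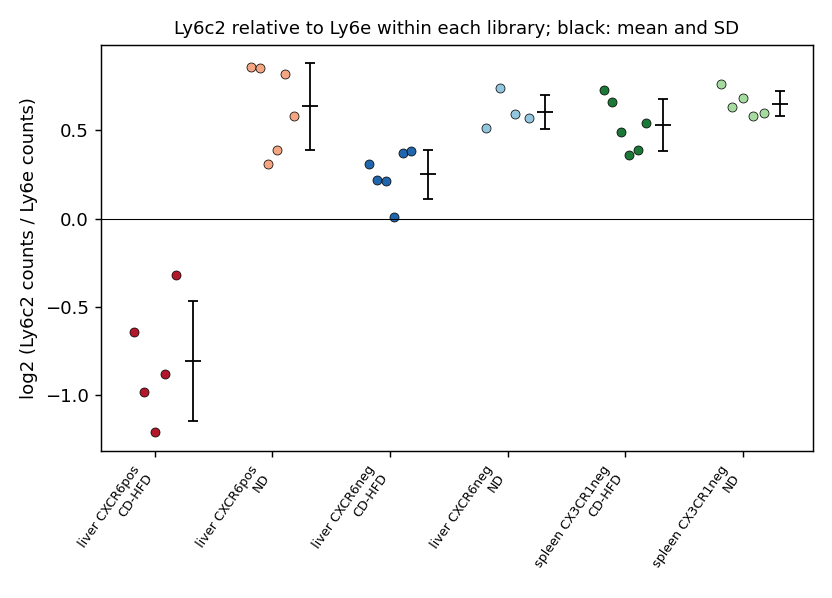
Log2 ratio of Ly6c2 counts to Ly6e counts on the vertical axis, with 1 point per library for the 6 groups and the mean and SD in black. The 5 CD-HFD liver CXCR6pos libraries lie between -1.21 and -0.32, and every other library lies between 0.01 and 0.86.

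Ly6a showed no such order. CD-HFD liver CXCR6pos libraries had 143, 140, 189, 173 and 227 CPM. ND liver CXCR6pos libraries had 0 CPM at the lowest, 148 CPM at the median and 230 CPM at the highest. The 0 came from replicate 1, the shallowest library, in which a count of 0 allows up to 192 CPM, so it does not separate that library from the others.

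CD-HFD liver CXCR6neg libraries had 153 CPM of Ly6a at the lowest, 218 CPM at the median and 373 CPM at the highest. ND liver CXCR6neg libraries had 90.5, 131, 186 and 162 CPM. Replicates 1 and 2 of the CD-HFD group, at 373 and 331 CPM, lay above every other library of the series. In the spleen Ly6a averaged 160 ± 49.4 CPM in CD-HFD and 149 ± 62.1 CPM in ND mice (SD, n = 6 and 5).

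The group means of Ly6a stood between 141 and 243 CPM, and each group overlapped its neighbour in the order. Its depth set wide errors, with 13 to 64 counts in a CD-HFD liver CXCR6pos library, whose spread of 20.7% was close to the 19.9% that counting gives. None of its 7 tests passed. The largest values were 0.69 ± 0.33 on the log2 scale for CD-HFD against ND in liver CXCR6neg cells (unadjusted p = 0.044, adjusted p = 0.565) and 0.68 ± 0.27 for CD-HFD liver CXCR6neg against CD-HFD spleen cells (unadjusted p = 0.0175, adjusted p = 0.115).

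The other Ly6a tests gave log2 fold changes of 0.10 ± 0.28 for CD-HFD against ND in spleen (adjusted p = 1), 0.28 ± 0.30 for liver CXCR6pos against spleen in ND mice (adjusted p = 0.65), 0.10 ± 0.34 for liver CXCR6neg against spleen in ND mice (adjusted p = 0.93) and 0.18 ± 0.33 for CXCR6pos against CXCR6neg in ND livers (adjusted p = 0.974). The 7th, the difference between the diet effects in liver CXCR6neg cells and spleen, was 0.59 ± 0.43 (adjusted p = 0.938). As a description, Ly6a in CD-HFD liver CXCR6pos cells had log2 fold changes of -0.04 ± 0.33 against ND CXCR6pos cells, -0.55 ± 0.32 against CD-HFD CXCR6neg cells and 0.13 ± 0.31 against CD-HFD spleen. These standard errors are about 3 times those of Ly6c2 and Ly6e, so a change of the size seen in Ly6e is about 2 standard errors of Ly6a.

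Ly6c1 and Ly6c2 are close copies, and nearly all counts went to Ly6c2. Over the 32 libraries Ly6c1 had 75 counts and Ly6c2 had 25940. In the last 500 bases of their GENCODE transcripts, where a 3′ protocol reads, 484 of 493 aligned bases were identical (98.2%), and 50 of 426 stretches of 75 bases (11.7%) were the same in both genes, while for Ly6a and Ly6e no such stretch was shared with another gene. The labels do not state how reads that match both copies were counted, so the division between Ly6c1 and Ly6c2 is uncertain, and Ly6c2 stands for reads that were given to that copy.

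The promoter windows of the copies are shown because the transcripts are nearly identical and the counts are not. They are RefSeq sequence on GRCm38.p6 from 250 bases before to 50 bases after a transcript start, the Ly6c1 window at chr15:75048788-75049087 and the Ly6c2 window at chr15:75111922-75112221, both on the minus strand and written 5′ to 3′. Capitals mark matches to the letters of 4 motifs searched on both strands.
Ly6c1: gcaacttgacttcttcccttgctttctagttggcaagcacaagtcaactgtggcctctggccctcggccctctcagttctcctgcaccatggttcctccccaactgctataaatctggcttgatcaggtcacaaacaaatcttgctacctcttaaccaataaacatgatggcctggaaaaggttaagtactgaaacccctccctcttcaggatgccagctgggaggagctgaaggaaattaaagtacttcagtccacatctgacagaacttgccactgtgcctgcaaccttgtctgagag
Ly6c2: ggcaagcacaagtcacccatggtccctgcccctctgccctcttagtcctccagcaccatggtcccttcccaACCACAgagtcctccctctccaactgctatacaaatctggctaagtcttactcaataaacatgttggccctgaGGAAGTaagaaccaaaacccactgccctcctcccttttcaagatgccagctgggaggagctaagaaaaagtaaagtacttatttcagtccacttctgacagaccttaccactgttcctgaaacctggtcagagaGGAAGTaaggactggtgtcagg
The windows were identical at 208 of 266 aligned bases (78.2%), fewer than at the transcript ends.

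The Ly6c2 window held the ETS core GGAAGT at -106 and at +29 from the start, counted at the first base of the match, and the RUNX core TGTGGT on the opposite strand at -179. The Ly6c1 window held neither. GGAAGT was found in 23.8% and TGTGGT in 16.8% of 32851 promoter windows of this length. The interferon-response element GAAANNGAAA, found in 3.44% of windows, and the interferon-gamma activated site TTCNNNGAA, found in 8.3%, had no match in the window of either gene. A match to such short letters is a description of the sequence and no sign of binding.

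Ly6c1 counts summed to 1 in CD-HFD and 11 in ND liver CXCR6pos cells, to 7 in CD-HFD and 11 in ND liver CXCR6neg cells, and to 32 in CD-HFD and 13 in ND spleen cells. Over the summed totals of each group these were 0.911 CPM in CD-HFD liver CXCR6pos cells (exact Poisson 95% interval 0.0231 to 5.08), against 6.24 CPM in ND liver CXCR6pos cells (3.12 to 11.2). The ratio of CD-HFD to ND was 0.146 with an interval of 0.00339 to 1.00, which covers counting error only. Against CD-HFD CXCR6neg cells the ratio was 0.180 with an interval of 0.00400 to 1.4, and against CD-HFD spleen it was 0.0958 with an interval of 0.00235 to 0.574. These ratios are a description, and their intervals leave out the spread between libraries. All rest on 1 count in the CD-HFD liver CXCR6pos libraries.

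The share of Ly6c2 in the summed counts of both copies averaged 99.5% ± 1.09 in CD-HFD and 99.8% ± 0.124 in ND liver CXCR6pos cells (SD, n = 5 and 6), and between 99.7% and 99.8% in the other groups. In 6 two-sided exact permutation tests over libraries no difference of this share passed, with adjusted p-values of 0.545 to 0.667. The smallest unadjusted p was 0.0909, for CD-HFD at 99.7% against ND at 99.8% in spleen.

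Of 36 other genes listed for the Ly6 family, 12 were in the count table and 2 passed the filter, Ly6d, an antigen of early B cells and of plasmacytoid dendritic cell precursors, and Plaur, the urokinase receptor. Ly6d averaged 11.6 ± 13.7 CPM in CD-HFD liver CXCR6pos and 209 ± 48.3 CPM in CD-HFD liver CXCR6neg cells (SD, n = 5 and 6), a log2 fold change of -4.77 ± 0.90 (adjusted p = 0.000459). It was higher in liver CXCR6neg than in spleen cells, with log2 fold changes of 2.84 ± 0.52 under CD-HFD (adjusted p = 0.000309) and 2.35 ± 0.61 under ND (adjusted p = 0.0152), and the call under ND was lost with DESeq2 (adjusted p = 0.062). Plaur was near 0 in all groups but liver CXCR6neg, where it averaged 46.3 ± 19.8 CPM under CD-HFD and 28.1 ± 14.9 CPM under ND (SD, n = 6 and 4). The other group means of Plaur were 0.581 to 4.50 CPM, so it passed the filter only through the groups where it was high and is given with no test.

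Beside these differences, markers of plasmacytoid dendritic cells, an interferon-producing cell type, moved in the same direction. The sum of 12 such markers, which do not include Ly6d, was 157 to 258 CPM in CD-HFD liver CXCR6pos, 1056 to 1745 CPM in CD-HFD liver CXCR6neg and 304 to 535 CPM in CD-HFD spleen cells. Of the 12, Spib, Ccr9 and Smim5 were at 0 in the CD-HFD liver CXCR6pos libraries and none was at 0 in the other groups. The part of these cells in the values of Ly6d and Plaur was not tested.

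**Figure D4:**
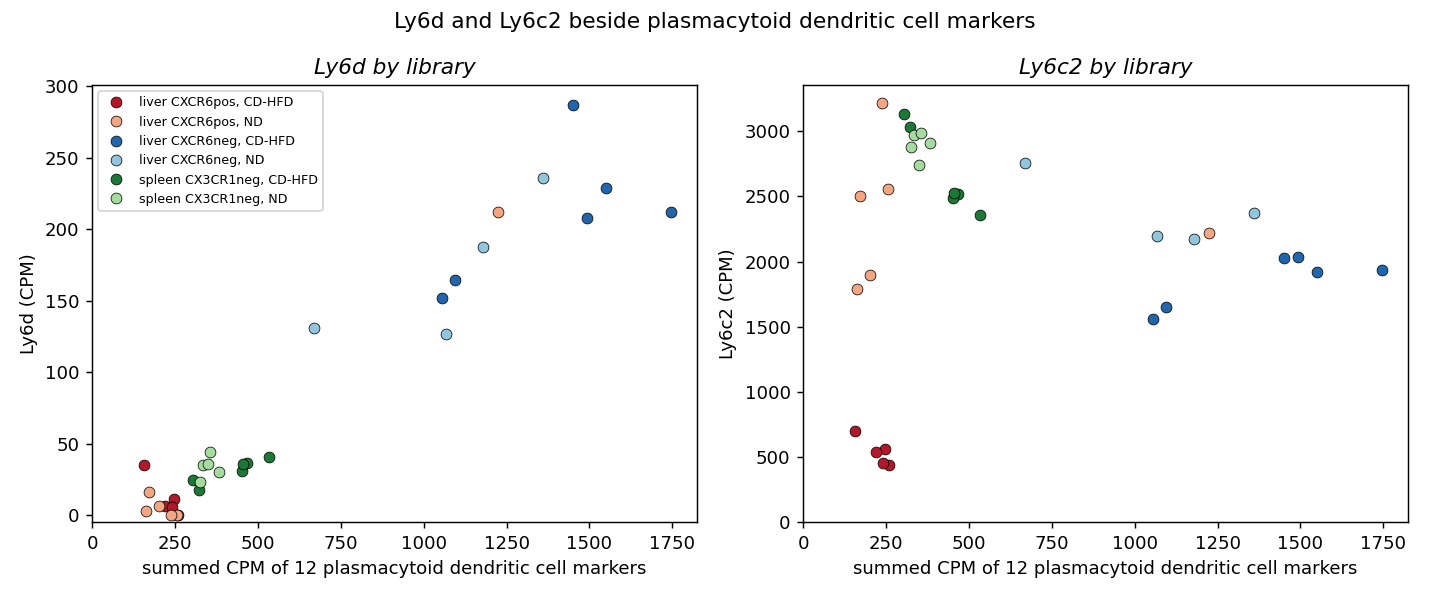
CPM of Ly6d (left) and Ly6c2 (right) on the vertical axis against the summed CPM of 12 plasmacytoid dendritic cell markers on the horizontal axis, with 1 point per library in the colour of its group. Ly6d reaches 287 CPM among the libraries with marker sums above 1000, and the CD-HFD liver CXCR6pos libraries, with sums of 157 to 258 CPM, have 441 to 700 CPM of Ly6c2.

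Between the diets in liver CXCR6pos cells, the sums of these markers were 157 to 258 CPM in CD-HFD libraries, against 161 to 256 CPM in 5 ND libraries and 1224 CPM in ND replicate 6. The 11 markers that passed the filter had a median fitted log2 fold change of -3.24, which includes markers at 0 under CD-HFD. It also includes ND replicate 6, and the median without that library was not computed. None of the 11 passed by edgeR, with 8 at an unadjusted p under 0.05 and 3 lower by DESeq2. Over all genes 4.84% were higher and 6.45% lower in this comparison, and 1320 of 6174 had an unadjusted p under 0.05. For lists as short as this one and those below, none passing is not read as no change. The log2 fold change of Ly6c2 was -2.16 without ND replicate 6, against -2.14 with it. The part of these cells in the level of Ly6c2 was not tested. The 14 monocyte and macrophage markers, a cell type rich in Ly6C, summed to 189 to 258 CPM in CD-HFD and 174 to 256 CPM in ND liver CXCR6pos libraries. Of the 14, 10 had a count in each group, with Adgre1, Fcgr1 and Clec4f at 0 in both. Of 4 tested, none passed by edgeR or DESeq2, with 1 higher and 1 lower at an unadjusted p under 0.05. B cell markers summed to 385 to 802 CPM in CD-HFD and 445 to 1956 CPM in ND libraries of this fraction, and no tested B cell marker of 7 passed between the diets by edgeR, with 3 at an unadjusted p under 0.05 and 1 higher by DESeq2.

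The 7 natural killer cell markers did differ there, with 79.4 to 280 CPM in CD-HFD and 247 to 496 CPM in ND liver CXCR6pos libraries. All 4 that could be tested were lower under CD-HFD, where 6.45% of all genes were lower and 4.84% higher. Ncr1 was at 0 in both groups, and Klra8 and Klra4 were at 0 under CD-HFD only. Part of this list is also expressed by CD8 T cells, and its part in Ly6c2 was not tested. The 5 CD4 T cell markers summed to 76.9 to 105 CPM in CD-HFD and 31.0 to 69.6 CPM in ND libraries of this fraction. Only 1 of them was tested, Izumo1r, which was higher under CD-HFD by edgeR (log2 fold change 2.25, adjusted p = 2.66e-07) and by DESeq2. The part of CD4 T cells in Ly6c2 was not tested either. Of the 9 CD8 T cell markers, 3 were higher under CD-HFD in this fraction, beside the same 4.84% of all genes, among them Cd3e at 0.73 ± 0.10 on the log2 scale (adjusted p = 2.82e-09).

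The rest of the family was scarce. Over the 32 libraries Lypd6b had 60 counts, Ly6k 55, Ly6g5b 46, Lynx1 21, Gpihbp1 18, Cd59a 6, Ly6i 5, Lypd1 4, and Ly6g and Psca 1 each. Ly6g, the neutrophil antigen that neighbours Ly6c2, was thus nearly absent from the sorted cells.

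The genes whose pattern over the 32 libraries was most like that of Ly6c2 were S1pr1 (Pearson r = 0.93), the receptor that lets T cells leave tissue, Tcf7 (r = 0.92), a transcription factor of naive and memory T cells, and Il7r (r = 0.92), the interleukin-7 receptor. These were taken from 3248 genes with a mean of at least 50 CPM on the log2 CPM scale, and the r describes libraries that share their groups, so no p is given. S1pr1 averaged 67.8 ± 17.2 CPM in CD-HFD and 250.5 ± 65.5 CPM in ND liver CXCR6pos cells (SD, n = 5 and 6), and between 293 and 367 CPM in the other groups. With the group means taken out, r with Ly6c2 was 0.36 for S1pr1, 0.31 for Tcf7 and 0.23 for Il7r, so most of the likeness lay between groups.

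Ly6e was most like Rpl13, a ribosomal protein gene (r = 0.91), S1pr1 (r = 0.90) and Ms4a4c (r = 0.90), and its r with Ly6c2 was 0.90. Most opposite to Ly6c2 were Ccl5 (r = -0.91), Nkg7 (r = -0.91) and Pdcd1 (r = -0.89), a chemokine, a cytotoxic granule protein and the inhibitory receptor PD-1. Ly6a was unlike the other members, with r = -0.07 with Ly6c2 and r = 0.20 with Ly6e. Its closest genes over 32 libraries were Tspan13 (r = 0.93), Ccdc59 (r = 0.90) and Lman2 (r = 0.89), but without the 2 shallow libraries Tspan13 had r = 0.66 and the next were Klrg1 (r = 0.59) and Esd (r = 0.58).

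Genes of circulating memory T cells, a list of 25 that were all tested and that holds S1pr1, Tcf7 and Il7r, were lower for the most part in CD-HFD liver CXCR6pos cells. Against ND liver CXCR6pos cells, 16 were lower and 3 higher, with a median log2 fold change of -1.10, where the median of all genes was 0.00. Over all genes 4.84% were higher and 6.45% lower. As a description, the log2 fold change was -1.45 ± 0.12 for Klf2, the factor that maintains S1pr1, -2.0 ± 0.19 for S1pr1, -2.05 ± 0.20 for Tcf7 and 1.05 ± 0.10 for Ccl5. S1pr1, Tcf7 and Ccl5 were named above for their likeness or opposition to Ly6c2 over the same libraries, so these values restate that choice and carry no test.

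Against CD-HFD CXCR6neg cells, 14 of the 25 were lower and 2 higher, with a median of -0.92, beside 4.76% of all genes higher and 6.38% lower. In liver CXCR6neg cells the diets differed in 2 of the 25, both lower under CD-HFD, where 0.292% of all genes were higher and 0.178% lower. These were S1pr5 at -1.58 ± 0.31 (adjusted p = 0.00281) and Klf2 at -0.45 ± 0.11 (adjusted p = 0.0177, lost with DESeq2 at 0.0669). Ly6c2 had -0.38 ± 0.11 there and did not pass. In ND mice 8 were lower and 5 higher in liver CXCR6pos than in spleen cells, beside 6.98% of all genes lower and 7.43% higher. The list holds Cx3cr1, and the spleen cells were sorted as CX3CR1neg. Klf2 was among the higher genes (1.03 ± 0.11, adjusted p = 5e-14) while Ly6c2 was lower. Klf2 and Ly6c2 thus had the same direction between the diets and opposite directions between ND liver CXCR6pos cells and spleen.

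Genes of tissue residency and exhaustion, 18 tested of 21 listed, went the other way. Against ND liver CXCR6pos cells 13 were higher and 3 lower in CD-HFD liver CXCR6pos cells, with a median log2 fold change of 1.48. Over all genes 4.84% were higher and 6.45% lower. Among the 13 were Bhlhe40 at 1.31 ± 0.13, Pdcd1 at 3.38 ± 0.25 and Tox at 2.40 ± 0.23, given as a description. Against CD-HFD CXCR6neg cells 15 were higher and none lower by edgeR or DESeq2, with 2 lower at an unadjusted p under 0.05. Over all genes 4.76% were higher and 6.38% lower there. The list holds Cxcr6, the receptor by which these fractions were sorted. In CXCR6neg cells Pdcd1 (2.63 ± 0.40, adjusted p = 0.000312) and Tox (1.46 ± 0.29, adjusted p = 0.00571) were higher under CD-HFD. Both lists were written with results of these libraries known.

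Interferon-response genes, the class that Ly6a and Ly6e belong to, held calls in both directions. Of 36 tested, 4 were higher and 3 lower in CD-HFD than in ND liver CXCR6pos cells, with a median log2 fold change of -0.12, in a comparison where 4.84% of all genes were higher and 6.45% lower, so counts this small are not read as a result on the list. Ifi27l2a rose by 1.74 ± 0.30 and Isg20 by 1.49 ± 0.33 on the log2 scale (adjusted p = 0.00014 and 0.000402), and Ifi47 had -0.46 ± 0.13 (adjusted p = 0.00837). In liver CXCR6neg cells Ifi27l2a was the 1 gene of the list that passed, at 1.69 ± 0.32 (adjusted p = 0.00571), where Ly6a had 0.69 ± 0.33 and Ly6e had -0.03 ± 0.10 and neither passed.

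Genes that build the GPI anchor did not pass between the diets. Of 29 listed, 13 were tested, and none passed in liver CXCR6pos cells by edgeR or DESeq2, with 1 at an unadjusted p under 0.05 and a median log2 fold change of 0.05. Of 7 tested genes for other GPI-anchored antigens of T cells, 1 was higher and 3 lower in CD-HFD than in ND liver CXCR6pos cells, beside the same 4.84% and 6.45% of all genes. Nt5e, the ectoenzyme CD73, had -4.70 ± 0.76 (adjusted p = 7.58e-07), Cd55, a complement regulator, had -1.40 ± 0.40 (adjusted p = 0.0101), Thy1 had -0.51 ± 0.12 (adjusted p = 0.000899) and Art2b was higher at 0.79 ± 0.27 (adjusted p = 0.0362, lost with DESeq2 at 0.0816). Against CD-HFD CXCR6neg cells 3 of these 7 were higher and 2 lower, among them Cd160 at 2.30 ± 0.36 and Nt5e at -4.47 ± 0.81 (adjusted p = 3.49e-05 and 1.26e-05). Over all genes 4.76% were higher and 6.38% lower in that comparison.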

How the data were processed

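RNA of sorted cells was read from its poly(A) end in bulk, with barcodes and molecular identifiers in the primer, per the labels' protocols. The authors deposited raw counts, 1 whole number for each gene symbol and library, in 1 table of the series. Per the submitters' processing notes the tools included DESeq2 1.14.1 and the build was GRCm38.p6. The aligner, annotation, use of strand, treatment of reads that match several genes and the kind of count, reads or molecules, were not given in the sources used here. Counts near a 3′ end carry no length to correct.

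Of 35 samples in 6 groups, 34 columns matched by name. Another 1 column matched no sample and was not used, and replicate 6 of the CXCR6pos cells of CD-HFD livers was not analysed here. After the 2 columns identical in all 22865 genes were left out, 32 libraries were fitted together with edgeR 4.0.16 (R 4.3.3): filterByExpr by group, TMM (factors 0.944 to 1.37), glmQLFit with robust estimation and glmQLFTest, without a block. Benjamini-Hochberg adjustment ran over 6174 genes in each of 12 comparisons, with a threshold of 0.05. The standard error is the size of the log2 fold change over the square root of F. CPM are counts over the deposited total of a library. A count of 0 was read as up to 3 counts, and intervals are exact at 95%; both cover counting error only. Over all tested genes, the deviations of same-numbered libraries from their group means had correlations of -0.06 to 0.08. These were under the 0.1 set for treating libraries as pairs, which does not exclude pairing. Some spleen values of Ly6a, and of Ly6c2 under CD-HFD, went with the replicate number.

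The members and all lists were chosen with earlier results of these data known. Named genes are the members, the 3 genes most like each, the other family genes, and up to 4 genes per list and comparison with the smallest p-values. Alternatives were DESeq2 size factors, DESeq2 1.42.0, no filter on low counts, only the compared groups with and without a replicate block, each library left out in turn, the identical columns kept, and the shallow libraries left out. Leaving out both ND libraries with Cxcr6 against their label, and the likeness without the shallow libraries, were added after seeing the data. The main script was tested on simulated counts.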

Additional observations from a re-analysis of the deposited data

Results flagged for a closer look

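Within groups of 4 to 6 libraries, 36 sets of values of the members, the share of Ly6c2 and the log2 ratio of Ly6c2 to Ly6e were searched for a library that stands apart from the rest, which chance gives in about 1 of 20 sets. Ly6c1 in CD-HFD liver CXCR6pos replicate 5 was at 17.5 CPM while the other 4 libraries were at 0, a value that rests on 1 count in 57168. The same count put the share of Ly6c2 in that library at 97.6%, against 100% in the others. Ly6e in ND liver CXCR6pos replicate 5 was at 1827 CPM, with the other 5 libraries between 1391 and 1487 CPM, and that library also had the highest Ly6c2 of its group, 3216 CPM.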

How the results depend on the processing

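No direction of a called value of Ly6c2, Ly6a or Ly6e reversed, and the calls of these genes held in all alternatives other than the following. Without the filter on low counts, Ly6e had -0.32 (adjusted p = 0.0621) in CD-HFD liver CXCR6neg against spleen and -0.33 (adjusted p = 0.0625) in ND liver CXCR6pos against spleen. Replicate numbers were not taken as pairs, although pairing is not excluded. With replicate as a block, in fits of the compared groups alone, ND liver CXCR6pos against spleen gave -0.36 for Ly6c2 (adjusted p = 0.0801) and -0.33 for Ly6e (adjusted p = 0.108), and no other call of a member changed. Leaving out 1 library at a time, CD-HFD liver CXCR6neg against spleen ranged from -0.29 to -0.25 for Ly6e, and ND liver CXCR6pos against spleen from -0.48 to -0.27 for Ly6c2. The cause of these lost calls was not tested. Those fits differed from the main one in their samples, their genes or the block. The log2 fold change of Ly6c2 between the diets in liver CXCR6pos cells stayed between -2.22 and -2.0 in all 21 alternatives.

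Counts of called genes over all genes moved by more than 1.5 times where few were called: CXCR6pos against CXCR6neg under ND had 2 as reported, 0 to 90 in the alternatives and 90 without both ND libraries with Cxcr6 against their label; CD-HFD against ND in liver CXCR6neg had 29, with 8 to 55; and CD-HFD against ND in spleen had 2, with 0 to 12. With the block, CD-HFD against ND in liver CXCR6pos had 418 in place of 697 and ND liver CXCR6pos against spleen 575 in place of 890. CXCR6pos against CXCR6neg under ND had 75 with the block and 0 without it, both in fits of those groups alone. With the identical column kept in both groups, ND liver CXCR6neg against spleen had 209 in place of 424. Depth limits Ly6c1, with 0 to 9 counts a library, and Ly6a most.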

Other observations

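In the spleen the Ly6a values fell into 2 sets by replicate number in both diets. Replicates 1 and 2 had 106 and 93.0 CPM under CD-HFD and 74.9 and 93.2 CPM under ND. The other 4 CD-HFD libraries had 173 to 209 CPM and the other 3 ND libraries 173 to 219 CPM. The spleen libraries with the highest Ly6c2 under CD-HFD were also replicates 1 and 2, at 3132 and 3032 CPM, against 2357 to 2527 CPM in the other 4. Under ND replicates 1 and 2 had 2974 and 2984 CPM, against 2738 to 2909 CPM in the other 3. The spread of Ly6c2 in ND spleen, 3.43%, was close to the 3.18% that counting gives. CD-HFD replicates 1 and 2 were also the deepest of their group, with total counts of 770641 and 978896. In ND spleen, replicate 4 was deeper than replicates 1 and 2. What libraries of the same replicate number share is not given in the sources used here.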
